A study of Drosophila melanogaster with 6 samples.

Results

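The ecdysteroid synthesis genes are the cytochrome P450 genes phtm, dib, sad, spo and spok, the oxygenase gene nvd, and shd, the P450 gene of the last step. They were chosen by name, as the Halloween genes of ecdysone synthesis with shd added, and found in the deposited table by their FlyBase identifiers. Of these 7 genes among the 17753 identifiers of the table, 4 (phtm, sad, spok and shd) had counts, dib and spo were listed at 0 in all 6 libraries, and the current identifier of nvd matched no row.

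Ecdysteroids are the steroid hormones that time moulting and metamorphosis in insects, and they also act in adult flies. They are made from dietary sterol by a chain of enzymes, which in larvae works in the prothoracic gland, an organ that breaks down during metamorphosis. The product, ecdysone, is converted in other tissues by the enzyme of shd to the active hormone, which binds the nuclear receptor formed by EcR and usp.

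The libraries were RNA-seq of male Drosophila melanogaster at day 10, with 3 libraries per group. The RU486 group carried Ugt35b RNAi under Repo-GS, a pan-glial GeneSwitch driver, and was given RU486, the drug that switches this driver on. The EtOH group carried the same driver and construct and was given the solvent ethanol. Each library was made from 10 flies and 500 ng of total RNA. The labels give the tissue as head, but the extraction protocol names brains, and photoreceptor markers, summed over 4 genes, stood at 47598 to 50205 counts per 1000000 (CPM) in RU486 and 48147 to 57473 CPM in EtOH, and so eye transcripts were present in every library. No group given RU486 without the construct was analysed here, so the drug and the knockdown cannot be told apart. The labels do not name separate cultures or crosses for the replicates, and the p-values therefore cover the spread among the sequenced libraries only, some of which may be technical. Total counts were 10156909 to 10633167 in RU486 and 11689966 to 12636787 in EtOH. The knockdown target, listed as Ugt35B1, was at 98.0 ± 12.6 CPM in RU486 and 143 ± 5.47 CPM in EtOH (SD, n = 3 each; log2 fold change -0.54, adjusted p = 0.00865). Its call was lost without EtOH replicate 3 (edgeR adjusted p = 0.0566) and held with any other library left out.

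Within ecdysteroid synthesis, phtm and sad were higher in RU486 libraries, shd was lower, and spok did not pass the test. The mean level of sad was about 10-fold higher and that of phtm about 6-fold higher, while shd was about 3-fold lower. Thus 3 of the 4 genes tested were called at an adjusted p under 0.05 in edgeR's quasi-likelihood test, 2 higher and 1 lower. Over all 8945 genes tested, 7.64% were called, with 4.36% called higher and 3.28% called lower. These 3 genes had no overlap between the groups, as was true of 27.3% of the genes tested (13.9% with RU486 higher and 13.5% with RU486 lower). Here and below, a log2 fold change is RU486 minus EtOH, and levels are CPM with TMM scaling.

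**Figure D1:**
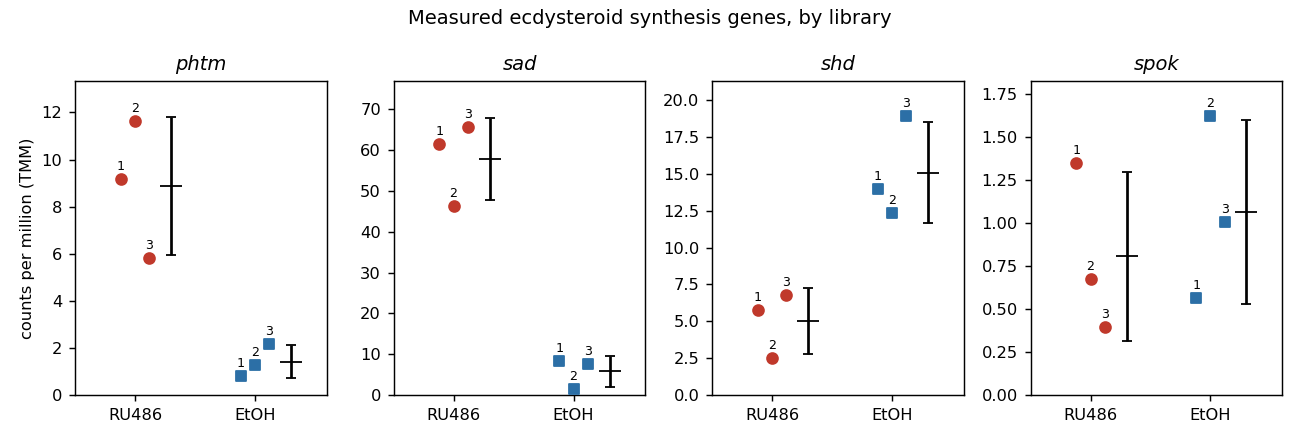
Level of the 4 measured ecdysteroid synthesis genes in CPM on linear axes that start at 0, with RU486 libraries as red circles and EtOH libraries as blue squares, numbered by replicate, and the mean ± SD of 3 libraries as a black bar. The groups do not overlap for phtm, sad and shd, and they do for spok.

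The early steps were the least measured. The product of nvd carries out the opening step, in which dietary cholesterol is dehydrogenated, and no value is given for it here. The products of spo and spok act in the poorly defined steps that follow, often called the black box, spo in the embryo and adult ovary and spok in the larval prothoracic gland. The gene spok (FBgn0086917, chromosome 3R, 3322810 to 3354486, plus strand) had 14, 7 and 4 counts in RU486 replicates 1 to 3, against 7, 19 and 13 counts in EtOH replicates 1 to 3. Its level was 1.35, 0.673 and 0.395 CPM in RU486, against 0.563, 1.63 and 1.01 CPM in EtOH. The groups overlapped, with the highest and the lowest values in EtOH replicate 2 and RU486 replicate 3. The log2 fold change was -0.38 with a standard error (SE) of 0.54 (adjusted p = 0.744). At so few counts this error spans both a rise and a fall, and a difference was not detectable at this depth.

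The gene spo (FBgn0003486, chromosome 3L, 5590083 to 5592571, minus strand) was listed at 0 in all libraries. Its exons share 308 of 2489 bases with l(3)psg2 on the other strand, which had 551, 534 and 575 counts in RU486 and 588, 664 and 609 in EtOH. The gene dib (FBgn0000449, chromosome 3L, 4062292 to 4064551, plus strand), whose product hydroxylates the sterol side chain in mitochondria, was also listed at 0. Its exons share 400 of 1975 bases with wit on the other strand. Of 2995 coding genes whose end overlaps an oppositely oriented coding gene, 73 (2.44%) were at 0. Of the 1001 lying inside such a gene, 1001 were at 0. Of 9004 coding genes with neither kind of position, 984 (10.9%) were at 0. The 2.44% leaves out rows that kept only a few counts. The neuronal gene elav, which partly overlaps arg on the other strand, had 12 counts over the 6 libraries. Whether overlap played a part in the zeros of spo and dib was not tested. Both genes were treated as unmeasured, and no fold or limit is given for them.

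The gene phtm (FBgn0004959, chromosome X, 18685766 to 18688433, plus strand) codes for the P450 of the endoplasmic reticulum that adds a hydroxyl group to the sterol side chain, the step before that of dib. It had 95, 121 and 59 counts in RU486 replicates 1 to 3, against 10, 15 and 28 counts in EtOH replicates 1 to 3. Its level was 9.18, 11.6 and 5.82 CPM in RU486, against 0.804, 1.28 and 2.17 CPM in EtOH. The lowest RU486 library, replicate 3, lay above the highest EtOH library, also replicate 3. The gene rose, at 8.88 ± 2.92 CPM in RU486 and 1.42 ± 0.693 CPM in EtOH (SD, n = 3 each), a 6.19-fold difference (log2 fold change 2.63, SE 0.37, adjusted p = 0.00297). The call held whichever library was left out, with a log2 fold change between 2.33 and 3.08 over the 6 fits.

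The neighbour of phtm in the genome is Cyp18a1, the P450 gene of ecdysteroid inactivation, which begins 104 bases past its end and runs on the other strand. Cyp18a1 was at 16.2, 14.5 and 13.6 CPM in RU486, against 19.1, 15.2 and 18.0 CPM in EtOH. The groups overlapped, and the log2 fold change was -0.24 with an SE of 0.13 (adjusted p = 0.313).

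The gene sad (FBgn0003312, chromosome 3R, 11877235 to 11879754, plus strand) codes for the mitochondrial P450 that completes ecdysone. It had 637, 483 and 665 counts in RU486 replicates 1 to 3, against 104, 17 and 97 counts in EtOH replicates 1 to 3. Its level was 61.5, 46.4 and 65.6 CPM in RU486, against 8.36, 1.45 and 7.52 CPM in EtOH. All RU486 libraries lay far above all EtOH libraries, and EtOH replicate 2 was lower than the other 2 EtOH libraries. The gene rose, at 57.9 ± 10.1 CPM in RU486 and 5.78 ± 3.77 CPM in EtOH, a 9.90-fold difference (log2 fold change 3.31, SE 0.40, adjusted p = 0.00140). By log2 fold change sad ranked 50th from the highest and phtm 65th among the 8945 genes tested. Without EtOH replicate 2 the log2 fold change of sad was 2.86 (adjusted p = 0.000312), and the call held whichever library was left out.

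The end of sad overlaps CG6962 on the other strand by 53 bases. CG6962 was at 8.03 ± 0.186 CPM in RU486 and 8.39 ± 0.240 CPM in EtOH, and the gene on the other side, CG6959, at 76.8 ± 2.05 CPM in RU486 and 72.3 ± 3.25 CPM in EtOH. Neither passed the test (log2 fold changes -0.06 and 0.09, adjusted p = 0.830 and 0.512).

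The gene shd (FBgn0003388, chromosome 3L, 14614458 to 14622205, plus strand) codes for the mitochondrial P450 that turns ecdysone into the active hormone, and in larvae it is known from fat body, gut and Malpighian tubules. It had 60, 26 and 69 counts in RU486 replicates 1 to 3, against 174, 144 and 244 counts in EtOH replicates 1 to 3. Its level was 5.80, 2.4997 and 6.81 CPM in RU486, against 14.0, 12.3 and 18.9 CPM in EtOH. The highest RU486 library lay below the lowest EtOH library, and RU486 replicate 2 was the lowest of all. The gene fell, at 5.03 ± 2.25 CPM in RU486 and 15.1 ± 3.43 CPM in EtOH, a 2.998-fold difference (log2 fold change -1.58, SE 0.31, adjusted p = 0.0160). In these bulk libraries fewer cells that express shd and less shd RNA per cell cannot be told apart. The direction held whichever library was left out, but the call was lost without EtOH replicate 1 (adjusted p = 0.0695) or EtOH replicate 3 (adjusted p = 0.107). The flanking genes HGTX (log2 fold change 0.42, SE 0.29) and CG9628 (0.10, SE 0.09) did not pass (adjusted p = 0.454 and 0.579).

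**Figure D2:**
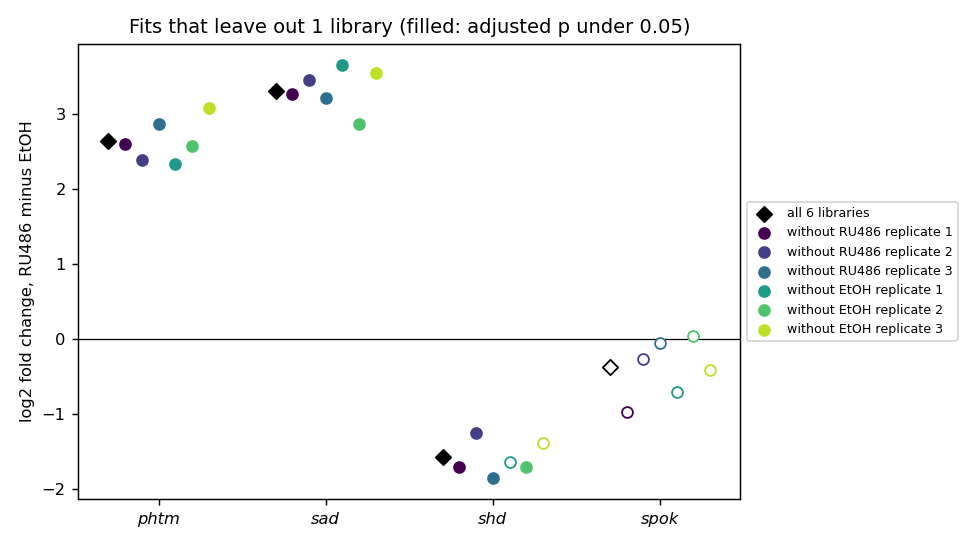
Log2 fold change (RU486 minus EtOH) of the 4 measured genes with all 6 libraries (diamonds) and with each library left out in turn (circles), filled where the adjusted p was under 0.05. All points of phtm lie between 2.33 and 3.08 and all points of sad between 2.86 and 3.65, while shd has 2 open points, without EtOH replicate 1 and without EtOH replicate 3.

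Ranked by mean level, the genes stood in a different order in each group. Levels between genes were compared as CPM per 1000 exonic bases. In RU486 the order was sad at 32.6 ± 5.69, phtm at 4.03 ± 1.32, shd at 1.67 ± 0.747 and spok at 0.456 ± 0.279, and no neighbours in this order overlapped over the 3 libraries. In EtOH the order was shd at 4.998 ± 1.14, sad at 3.26 ± 2.12, phtm at 0.644 ± 0.315 and spok at 0.603 ± 0.302. Here each gene overlapped its neighbours in the order, shd with sad, sad with phtm, and phtm with spok. Within a library the ratio of sad to shd, each per exonic base, was 18.1, 31.6 and 16.4 in RU486 replicates 1 to 3, against 1.02, 0.201 and 0.676 in EtOH replicates 1 to 3. This ratio does not depend on how libraries were scaled. The ratio of phtm to shd was 1.17 to 6.37 in RU486 and 0.0787 to 0.157 in EtOH. The ratio of sad to phtm overlapped between groups, at 4.96 to 14.0 in RU486 and 1.41 to 12.9 in EtOH.

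Some markers of other cells also differed between the groups. Of 17 digestive tract genes 4 had no counts (deltaTry, mag, LysB and LysE). Of these, mag, LysB and LysE lie inside other coding genes, where nearly all rows were at 0, and were not measured. Of 9 tested, 2 (Amy-p and Amy-d) were called higher, against 4.36% of all genes tested, and 9 had log2 fold changes above 0. Their calls held in 4 and 2 of the 6 fits with a library left out. The sum over the list was 42.7, 11207 and 881 CPM in RU486 replicates 1 to 3, against 51.7, 63.9 and 39.6 CPM in EtOH replicates 1 to 3. The sum in RU486 replicate 1 was within the EtOH range, although single genes were not, with Amy-p at 9.27 CPM there and 3.10 to 5.22 CPM in EtOH, and betaTry at 0 CPM there and 0.543 to 3.25 CPM in EtOH. In that library sad was at 61.5 CPM, phtm at 9.18 CPM and shd at 5.80 CPM. The part of digestive transcripts in these differences was not tested. Of 9 fat body markers 0 were without counts, and 6 of the 7 tested were called lower, with Obp99b at 6.54 ± 3.24 CPM in RU486 and 147 ± 40.9 CPM in EtOH, and Lsp1beta at 9.26 ± 4.65 CPM in RU486 and 106 ± 43.6 CPM in EtOH. Over all genes tested, 3.28% were called lower. Both Obp99b and Lsp1beta fell further than shd by log2 fold change (-4.49 and -3.51). Yp1 (-1.72) and Yp2 (-1.66) were close to shd (-1.58). Lsd-1, also called (-0.73), Yp3 (-0.37) and apolpp (-0.05) fell less than shd. The calls of Yp1, Yp2 and Yp3 were near the threshold (edgeR adjusted p = 0.0412, 0.0434 and 0.0489). Each of these calls held in only 1 of the 6 fits with a library left out. The sum over this list, most of it from apolpp, which was not called, was 5483 to 5770 CPM in RU486 and 5990 to 6674 CPM in EtOH, without overlap. Their part in the fall of shd was not tested. Of 6 glial genes 2 were called lower, wrapper at 12.6 ± 0.739 CPM in RU486 and 54.2 ± 4.33 CPM in EtOH (log2 fold change -2.10), and Gat at 48.7 ± 5.40 CPM in RU486 and 185 ± 14.6 CPM in EtOH (-1.92). The other 4, repo among them, were not called. The share called lower was 33.3% of this list, against 3.28% over all genes tested. The list, most of it Gs2, summed to 3242 to 3551 CPM in RU486 and 3566 to 3651 CPM in EtOH, again without overlap, and its part in the differences of the synthesis genes was not tested. Of 4 Malpighian tubule markers Uro was at 0 in all libraries and 0 of 3 tested were called, with sums of 107 to 132 CPM in RU486 and 97.1 to 120.0 CPM in EtOH. The gland markers jhamt and Akh together stood at 26.9 to 39.6 CPM in RU486 and 23.9 to 57.6 CPM in EtOH, and neither was called. Of 4 neuronal markers 3 were tested and 0 were called, with sums of 3676 to 3786 CPM in RU486 and 3364 to 4394 CPM in EtOH. The marker elav, with 6 counts in RU486 and 6 in EtOH, was not tested. Of 13 genes of the male reproductive tract, 7 were at 0 in all libraries, and the list summed to at most 1.64 CPM in RU486 and 2.01 CPM in EtOH. Among the genes at 0, Acp36DE, Acp62F and Acp95EF lie inside oppositely oriented coding genes, where every row was at 0, and so were not measured.

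**Figure D3:**
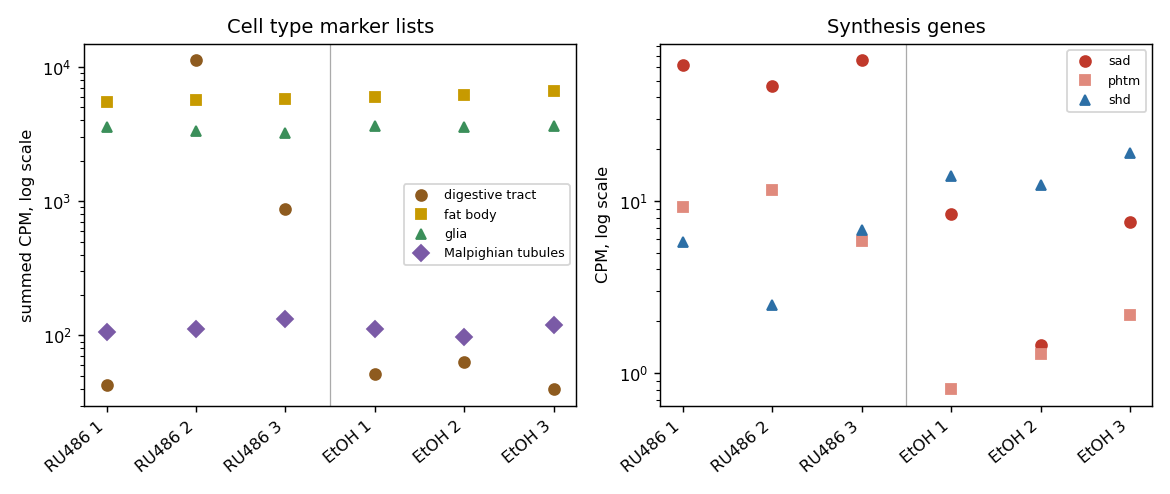
Left, summed CPM of the marker lists for digestive tract, fat body, glia and Malpighian tubules in each library; right, CPM of sad, phtm and shd in the same libraries, both on log axes. The sum of digestive transcripts is high in RU486 replicates 2 and 3 (11207 and 881 CPM) and within the EtOH range in replicate 1 (42.7 CPM), and sad, phtm and shd lie outside their EtOH ranges in all 3 RU486 libraries.

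The other genes of ecdysteroid synthesis changed little. Of 13 listed genes 11 were tested, 0 rose, 1 fell and 10 did not pass, and the median log2 fold change was -0.01, against 0.00 over all genes tested. The share called was 9.09%, near the 7.64% called over all genes tested. The short-chain dehydrogenase gene sro, a further Halloween gene of the black box, had 2, 2 and 1 counts in RU486 and 2, 3 and 4 counts in EtOH, too few to be tested. The transcription factor gene ouib, known as an activator of spok, was as rare, with 13 counts in RU486 and 9 in EtOH. GstE14, the glutathione S-transferase gene noppera-bo that supports sterol use in the gland, was at 35.3 ± 1.98 CPM in RU486 and 43.1 ± 8.84 CPM in EtOH (log2 fold change -0.29, SE 0.14, adjusted p = 0.258). The mitochondrial P450s receive their electrons through dare, an adrenodoxin reductase, and ferredoxins. Here dare was at 13.3 ± 0.743 CPM in RU486 and 13.4 ± 0.928 CPM in EtOH, and Fdx1 at 8.22 ± 0.316 CPM in RU486 and 7.87 ± 1.26 CPM in EtOH, with log2 fold changes of -0.01 (SE 0.11) and 0.06 (SE 0.16). The fall was in Npc2a, a sterol-binding protein gene, by 0.38 on the log2 scale (adjusted p = 0.0386), and it was called in 2 of the 6 fits with a library left out. The sterol transporter gene Npc1a was at 277 ± 10.8 CPM in RU486 and 255 ± 7.78 CPM in EtOH (log2 fold change 0.12, SE 0.08, adjusted p = 0.417). The regulators mld (log2 fold change 0.28, SE 0.10) and vvl (0.25, SE 0.08) are known to act on synthesis genes in the larval gland. Both lay higher in every RU486 library, as did 13.9% of all genes tested, but did not pass (adjusted p = 0.127 and 0.0951).

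Among genes that signal to the prothoracic gland in larvae, 1 of 10 tested rose, 0 fell and 9 did not pass (median log2 fold change 0.10). This share of 10% was near the 7.64% called over all genes tested. InR, the insulin receptor gene, was at 111, 113 and 118 CPM in RU486, against 62.5, 84.8 and 61.2 CPM in EtOH. It rose (log2 fold change 0.71, SE 0.12, adjusted p = 0.00680), and the call was lost without EtOH replicate 1 (adjusted p = 0.0618). Its groups did not overlap, as was true with RU486 higher of 13.9% of all genes tested. Ptth, the brain peptide that drives the gland, had 13, 18 and 26 counts in RU486 and 23, 17 and 18 counts in EtOH (log2 fold change 0.24, SE 0.33, adjusted p = 0.741). Its receptor gene tor had 15 counts in RU486 and 15 in EtOH and was not tested.

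Of the 3 tested genes of transport and inactivation, 1 fell and 2 did not pass, where 3.28% of all genes tested were called lower. Oatp74D codes for the importer through which ecdysone enters cells. It was at 44.9, 36.4 and 43.0 CPM in RU486, against 62.5, 68.9 and 58.8 CPM in EtOH. All RU486 libraries were below all EtOH libraries, as was true of 13.5% of all genes tested. The gene fell (log2 fold change -0.61, SE 0.10, adjusted p = 0.00680), whichever library was left out. Besides Cyp18a1, given above, the transporter gene Atet, known from ecdysone release in the gland, did not pass (log2 fold change 0.08, SE 0.09, adjusted p = 0.662). Eo, the ecdysone oxidase gene, lies inside Flo2 on the other strand and was not measured.

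Receptor and response genes moved in both directions or did not pass the test. Of 20 tested, 2 rose, 1 fell and 17 did not pass, and the median log2 fold change was 0.06. The share called was 15%, against 7.64% over all genes tested. EcR was at 94.3, 96.2 and 95.2 CPM in RU486, against 74.8, 106 and 88.5 CPM in EtOH (log2 fold change 0.08, SE 0.11, adjusted p = 0.728). Its partner usp, which lies inside Actn, and br had no counts and were not measured. The early genes Eip74EF (log2 fold change 0.06, SE 0.13), Eip75B (0.25, SE 0.09) and Eip78C (-0.11, SE 0.10) did not pass (adjusted p = 0.842, 0.152 and 0.598).

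The 3 calls in this list were ImpL2, Kr-h1 and Hr38. ImpL2, named for its induction by the hormone in larval discs and coding for a secreted insulin-binding protein, was at 408 ± 41.7 CPM in RU486 and 274 ± 23.1 CPM in EtOH (log2 fold change 0.58, SE 0.10, adjusted p = 0.0103). Kr-h1, a zinc finger gene also known as a juvenile hormone target, was at 112 ± 6.98 CPM in RU486 and 77.5 ± 10.97 CPM in EtOH (0.54, SE 0.10, adjusted p = 0.0128). Hr38, a nuclear receptor gene also known as a marker of neuronal activity, fell to 45.7 ± 2.53 CPM in RU486, against 61.1 ± 4.73 CPM in EtOH (-0.42, SE 0.09, adjusted p = 0.0200). ImpL2 lost its call without EtOH replicate 1 (adjusted p = 0.0536). Kr-h1 lost it without EtOH replicate 1, EtOH replicate 3 or RU486 replicate 3 (adjusted p = 0.0974, 0.0781 and 0.0582), and Hr38 without RU486 replicate 1, RU486 replicate 2 or EtOH replicate 3 (0.0773, 0.0616 and 0.0947). ImpL2, Kr-h1 and Hr38 all share exonic bases with other genes.

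**Figure D4:**
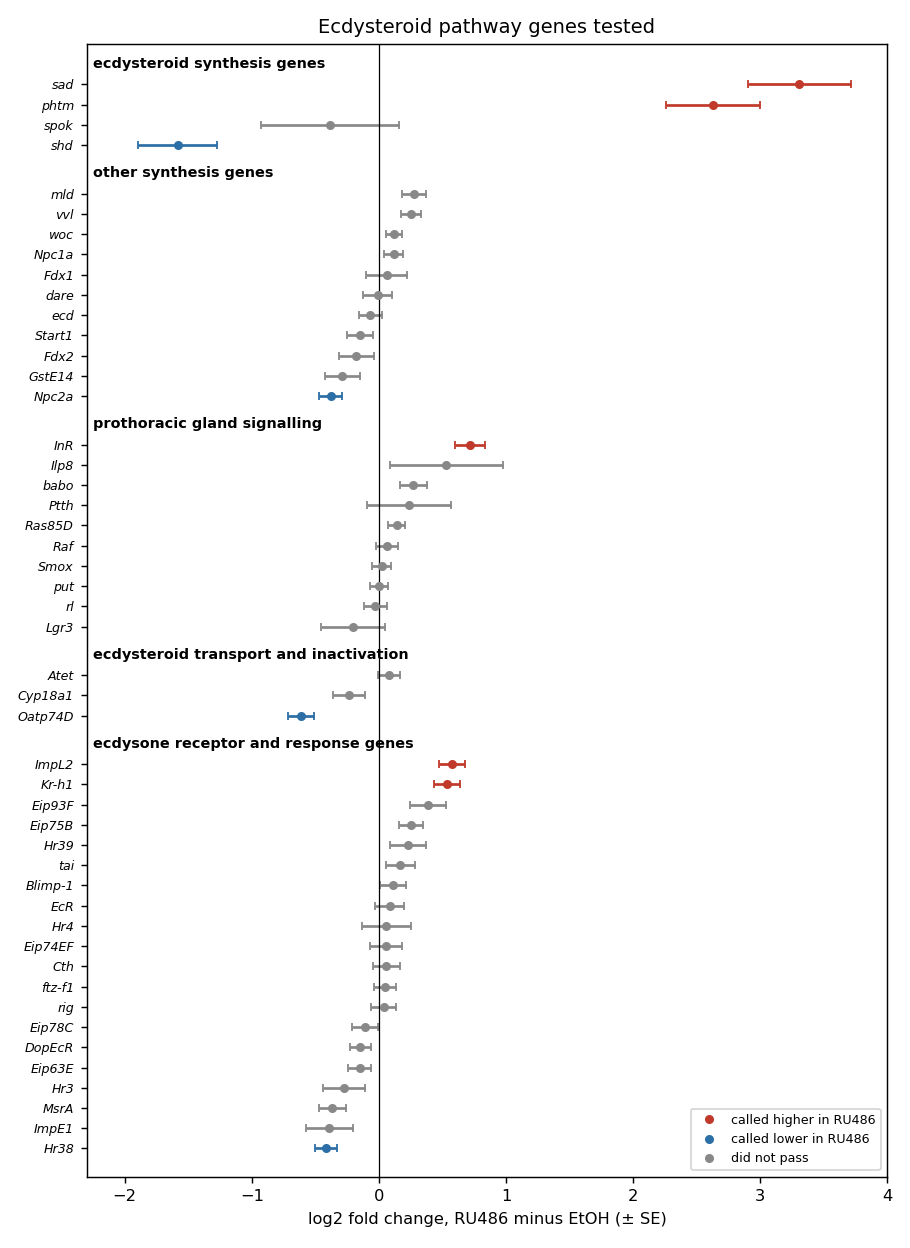
Log2 fold change (RU486 minus EtOH) ± SE of every tested gene of ecdysteroid synthesis, signalling to the gland, transport and inactivation, and response, in red where called higher, blue where called lower and grey where not called. The values of sad (3.31), phtm (2.63) and shd (-1.58) lie outside those of all other genes drawn, which run from -0.61 (Oatp74D) to 0.71 (InR).

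The genes whose pattern over the 6 libraries was most like that of each synthesis gene were found as those with the smallest root mean square distance between centred log2 CPM values, a description only. For sad these were m at 0.31, CG14949 at 0.34 and CG11898 at 0.42 on the log2 scale. The gene m was at 24.2 ± 1.88 CPM in RU486 and 2.15 ± 1.16 CPM in EtOH, and CG14949 at 91.6 ± 8.47 CPM in RU486 and 10.2 ± 7.62 CPM in EtOH. For phtm they were Cpr100A at 0.39, Tig at 0.40 and CG6891 at 0.41. Tig, which codes for the extracellular matrix protein tiggrin, was at 704 ± 52.5 CPM in RU486 and 141 ± 19.2 CPM in EtOH. For shd they were CG10514 at 0.27, phu at 0.31 and the yolk protein gene Yp2 at 0.34. Yp2, a marker of fat body, was at 1.75 ± 0.952 CPM in RU486 and 5.55 ± 1.89 CPM in EtOH. It had 22, 7 and 25 counts in RU486 replicates 1 to 3. The tested fat body markers did not share 1 order within RU486. Yp1, Yp2, Yp3 and Obp99b were lowest in replicate 2, as shd was. Lsp1beta and Lsd-1 were lowest in replicate 3, and apolpp in replicate 1. For spok, at 4 to 19 counts a library, the closest was C15 at 0.22.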

How the data were processed

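Per the file headers, the authors deposited raw read counts per gene, without normalisation. BDGP6 is the genome build in the submitters' processing notes, and the kit was a stranded mRNA kit per the labels' protocols. The aligner, counter, strand setting and annotation release were not given in the sources used here. Genes lying inside oppositely oriented genes were at 0, so counting appears to have ignored strand.

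Symbols came from a FlyBase table, which matched 17626 of 17753 identifiers. Coordinates (1-based) and exonic lengths came from Ensembl release 115, BDGP6.54. Of the pathway names, nvd and Activ-beta found no row.

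Genes were kept by filterByExpr (minimum count 10), scaled by TMM and tested with edgeR 4.0.16 in R 4.3.3 (two-sided quasi-likelihood test, Benjamini-Hochberg over 8945 genes, called under 0.05). SE is |log2 fold change|/√F. The procedure was tested on simulated counts. No pair of libraries of a group agreed within sampling noise. Levels are mean ± SD of 3 libraries.

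The synthesis genes and the lists were chosen with earlier results of these data known. Named were all synthesis genes, all called genes of the other lists reported, otherwise up to 4 with the smallest p, and sro, GstE14, Cyp18a1, EcR and usp. Others were named after their values were seen: genes next to the synthesis genes, ouib, dare, Fdx1, Npc1a, mld, vvl, Ptth, tor, Atet, Eo, br, Eip74EF, Eip75B, Eip78C, elav, jhamt, Met and gce. Alternatives were DESeq2 1.42.0 size factors and Wald test, limma-voom (limma 3.58.1), library size alone, other filters, a replicate block and each library left out. No sequence is printed, and 1 gene of the juvenile hormone list is not reported here.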

Additional observations from a re-analysis of the deposited data

How the results depend on the processing

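The calls of sad and phtm held under all 13 alternatives, and that of shd under 11. Leaving out 1 library gave log2 fold changes of -1.86 to -1.26 for shd, whose call was lost at -1.65 without EtOH replicate 1 and at -1.39 without EtOH replicate 3, and of -0.98 to 0.036 for spok, which changed sign without EtOH replicate 2. The number of genes called ranged from 341 (without EtOH replicate 3) to 1441 (without EtOH replicate 2), against 683 with all libraries; leaving out RU486 replicate 2 gave 440, RU486 replicate 3 gave 402 and EtOH replicate 1 gave 399. Over these fits the calls ranged from 0 to 3 for the other synthesis genes, from 0 to 2 for signalling to the gland, from 1 to 2 for transport and inactivation, from 1 to 8 for receptor and response genes and from 1 to 2 for juvenile hormone genes, each highest without EtOH replicate 2. Receptor and response genes gave 5 calls with the DESeq2 Wald test and 5 with the replicate block, against 3. The cause was not tested. EcR ranged from -0.051 (without EtOH replicate 1) to 0.22. Of the values of 10 other named genes under the alternatives, 116 kept direction and side of the threshold, 13 lost their call and 1 changed sign.

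Replicate numbers are shared between the groups, but same-numbered libraries did not deviate together throughout (correlations 0.12, 0.27 and -0.044 for numbers 1 to 3). Not every library correlated best with its own number. With 3 libraries per group these correlations cannot settle whether same-numbered libraries shared a batch. The replicate block gave 872 genes called, against 683 without it. With the replicate block the log2 fold changes were 3.39 for sad, 2.61 for phtm, -1.62 for shd and -0.39 for spok, and 3 of 4 were called. The 3 libraries per group and the few counts of spok, sro and ouib limit what could be detected.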

Other observations

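Juvenile hormone, the other developmental hormone of insects, is made in the corpus allatum. The gene jhamt codes for the methyltransferase of the final steps of its synthesis and was at 11.6 ± 1.34 CPM in RU486 and 13.3 ± 3.60 CPM in EtOH (SD, n = 3 each; log2 fold change -0.20, SE 0.21, edgeR adjusted p = 0.635). The receptor genes Met and gce were at 43.3 ± 0.319 and 58.6 ± 3.75 CPM in RU486 and at 39.2 ± 1.41 and 55.3 ± 1.02 CPM in EtOH, and neither passed (adjusted p = 0.283 and 0.592).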
